A study of Rattus norvegicus with 16 samples.

Results

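The smooth muscle contractile genes are 8 genes that build and regulate the actin and myosin filaments of smooth muscle: Acta2, Tagln, Myh11, Cnn1, Myl9, Tpm1, Tpm2 and Des. Their probe sets (groups of oligonucleotides for 1 or more transcripts) were taken from the array platform's annotation by gene symbol, which gave 18 of 8740 non-control probe sets, for 8 of the 4736 genes that have a probe set of their own. Expression had been measured in both kidneys of 8 rats, 1 array per kidney. In each animal the left kidney was labelled the control. The right kidney was labelled saline in rats 2, 4, 6 and 8 and ACTH (adrenocorticotropic hormone) in rats 1 and 5. In rats 3 and 7 it was labelled DEX, an abbreviation that the labels leave unexpanded. The array titles name 4 saline rats, although the series description counts 2 rats per treatment, and the titles were followed. Strain, sex, age, dose, route and duration are not given in the labels, nor is whether a treatment reached the right kidney alone. Each array title carries a rat number, 8 in all, which were taken as 8 animals.

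Smooth muscle contracts when calcium and calmodulin activate a kinase that phosphorylates the myosin regulatory light chain, here Myl9, so that myosin heavy chain, Myh11, pulls on filaments of smooth muscle alpha-actin, Acta2. Tropomyosins (Tpm1, Tpm2), calponin (Cnn1) and transgelin (Tagln, also called SM22) lie along those actin filaments, and the intermediate filament protein desmin (Des) links the contractile units. In the kidney these genes mark the walls of arteries and arterioles, and mesangial cells and myofibroblasts can express some of them. Many are controlled by serum response factor, which binds a short DNA element, the CArG box, and by myocardin, a coactivator that binds serum response factor.

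The promoter of Acta2 is shown because it carries a pair of close relatives of that element. RefSeq (build GRCr8) gave promoter entries for 5 of the 8 genes (Acta2, Cnn1, Tpm1, Tpm2 and Des), each from 250 bases before to 50 bases after the gene start. The CArG box has 10 letters, with CC at one end, GG at the other and 6 letters of A or T between them, and reads alike on both strands. An exact match was found in 0 of the 5 promoters, and in 548 of all 33469 promoters of the same length (1.64%). A looser form with at most 1 G or C in the core, chosen after the exact search, was found in 9.42% of all promoters. Acta2 alone of the 5 held it, in 2 places that start at −134 and −84 from the gene start. At least 2 such matches occurred in 0.846% of all promoters. The 250 bases before the Acta2 start, at chr1:241172504-241172753 on the minus strand of GRCr8, read 5′ to 3′ as follows, with the 2 looser matches in capitals.
Acta2: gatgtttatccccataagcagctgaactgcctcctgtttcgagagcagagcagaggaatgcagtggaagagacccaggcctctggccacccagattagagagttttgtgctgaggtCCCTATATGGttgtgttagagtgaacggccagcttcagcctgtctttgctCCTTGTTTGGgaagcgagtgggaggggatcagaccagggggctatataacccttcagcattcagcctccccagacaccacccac

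The arrays' medians lay between 76.0 and 82.4 signal units. The number of arrays limits the precision. Kidney markers were bright: in all 16 arrays the phosphate transporter Slc34a1 was at 4343 or above, uromodulin (Umod) at 1756 or above and the water channel Aqp2 at 869 or above. Arrays fell into 2 clusters, 1 of rats 1 to 4 and 1 of rats 5 to 8, for which the labels have no name, each with both kidneys of 1 ACTH, 1 DEX and 2 saline rats. Signals of different probe sets cannot be set against each other, because their oligonucleotides differ. In whole kidney RNA, a change in the number of smooth muscle cells cannot be told apart from a change in RNA per cell. Changes are right minus left differences on the log2(signal + 16) scale, which understates the change of dim probe sets. Tests were limma's two-sided moderated tests with a term for each rat, on the 5244 brighter probe sets, with Benjamini-Hochberg adjustment over all of them. Of the 18 probe sets, 13 passed that brightness filter, for 7 of the 8 genes. Tpm2, 2 of 3 Myh11 and 2 of 5 Tpm1 probe sets were under it.

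In the ACTH rats, Acta2 and Tagln were higher in the right kidney than in the left kidney of the same rat. In the right over left comparison of the ACTH rats, 4 of the 13 tested probe sets passed, all higher, where 3.57% of all 5244 passed in either direction and 2.02% passed as higher (106 higher and 81 lower). The 4 were 2 of 3 Acta2 and both Tagln probe sets. With the mean of fat markers as a covariate, which is described with the marker lists, 1 of the 13 passed, Acta2 rc_AA900769_s_at. The split over all was then 49 higher and 159 lower. In the ACTH effect over saline, the right minus left change of the ACTH rats minus that of the saline rats, 0 of 13 passed, where 0.496% of all did. At an unadjusted p under 0.05 that effect gave 6 of the 13 (3 Acta2, 2 Tagln, 1 Des), all higher, where 9.44% of all probe sets were at that p and 4.27% were higher. Both comparisons use the same ACTH arrays, and all effects over saline share the 4 saline rats. DEX gave 0 of 13 in its effect over saline and 0 of 13 in right over left, where 0% of all passed in each. At an unadjusted p under 0.05 these gave 1 and 2 of the 13, all lower. Of all probe sets 2.94% and 5.91% were at that p, and 1.14% and 2.38% were lower.

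**Figure D1:**
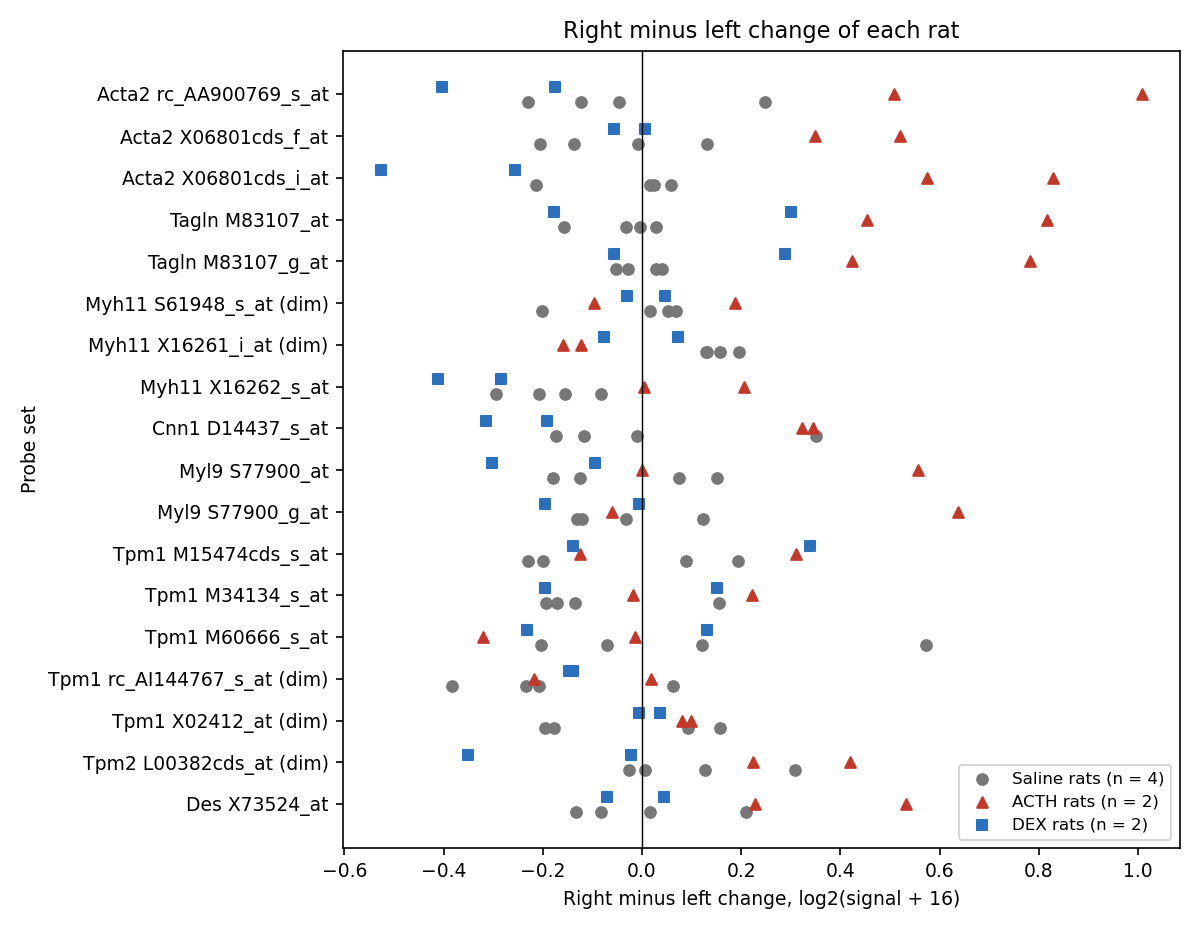
Right minus left change of each rat on the log2(signal + 16) scale (x axis) for the 18 probe sets (y axis), with 4 saline, 2 ACTH and 2 DEX rats as separate symbols and "dim" marking the 5 probe sets under the brightness filter. For all 3 Acta2 and both Tagln probe sets the ACTH rats lie right of every saline rat, while the Tpm1 symbols of the 3 treatments are mixed.

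Acta2, the actin of the smooth muscle thin filament, was measured by 3 probe sets with this symbol alone. On rc_AA900769_s_at the signal went from 225 in the left to 327 in the right kidney of ACTH rat 1, and from 83.4 to 184 in ACTH rat 5. In saline rats 2, 4, 6 and 8 it was 200.02, 219, 111 and 101 on the left and 241, 199, 107 and 83.9 on the right. The DEX rats went the other way, from 236 to 174 in rat 3 and from 186 to 163 in rat 7. Levels on this probe set differed between the clusters of arrays, and the right kidney of ACTH rat 5 lay below those of saline rats 2 and 4, so the groups overlap in level and separate only as changes within rats. The change was 0.51 and 1.01 in the ACTH rats, against −0.23 to 0.25 in the saline rats. In the ACTH rats it rose, right over left, 1.69-fold (log2 0.76 ± 0.15 SE, 2 rats, limma adjusted p = 0.0199). Over saline it had 0.80 ± 0.19 SE (limma adjusted p = 0.1004), which did not pass.

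The second Acta2 probe set, X06801cds_i_at, gave 97.1 and 152 in the left and right kidneys of ACTH rat 1 and 127 and 238 in those of ACTH rat 5. Saline kidneys had 144, 126, 129 and 148 on the left and 147, 132, 109 and 149.7 on the right, in the order of rats 2, 4, 6 and 8. DEX rat 3 went from 179 to 147 and DEX rat 7 from 193 to 129. Both ACTH right kidneys were above all 4 saline right kidneys here, rat 1 only narrowly, and its left kidney was the lowest of all 16. The rise over the left kidney in the ACTH rats was 0.70 ± 0.13 SE (2 rats, limma adjusted p = 0.0106), and the ACTH effect over saline was 0.73 ± 0.16 SE (limma adjusted p = 0.0658), short of the threshold. This was also the 1 probe set of the 13 that passed in the comparison of the hormones, with a change 1.09 ± 0.18 SE higher for ACTH than for DEX (2 rats each, limma adjusted p = 0.0272), where 0.572% of all probe sets passed. Both sides contributed, with changes of 0.58 and 0.83 under ACTH and −0.26 and −0.53 under DEX. With right kidneys alone the difference was 0.43 and did not pass, and the left kidneys of the DEX rats were the 2 highest of the left kidneys. With the fat marker mean as a covariate it was 1.102 ± 0.34 SE (limma adjusted p = 0.14) and did not pass. It also missed the threshold without rat 3, 4 or 7 (limma adjusted p = 0.0977, 0.0527 and 0.181).

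The third, X06801cds_f_at, whose suffix marks oligonucleotides shared by a sequence family, gave smaller changes. Signal was 171 on the left and 223 on the right in ACTH rat 1, and 159.7 and 236 in ACTH rat 5. Right kidneys had 209, 210.0, 162 and 169.8 in saline rats 2, 4, 6 and 8, and left kidneys 244, 211, 146 and 188. DEX rats 3 and 7 had 252 and 172 on the left and 242 and 173 on the right. The 2 ACTH right kidneys were above every saline right kidney but not above DEX rat 3. The ACTH rats had a right over left change of 0.43 ± 0.13 SE (2 rats, limma adjusted p = 0.0854), which did not pass. A further 4 probe sets are annotated to both Acta2 and cardiac actin, Actc1, and count as neither gene. Of these, X80130cds_f_at and X80130cds_i_at passed the brightness filter, with ACTH effects of 0.12 ± 0.16 SE and −0.10 ± 0.18 SE, and the other pair stayed under 25 signal units on all arrays.

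Tagln, an actin-binding protein that is among the early markers of smooth muscle, was read by 2 overlapping probe sets of 1 transcript, which are not independent. On M83107_at the signal rose from 294 to 408 in ACTH rat 1 and from 292 to 525 in ACTH rat 5. Saline rats 2, 4, 6 and 8 had 179.7, 236, 337 and 415 on the left and 179, 241, 301 and 405 on the right. DEX rat 3 went from 236 to 294, and DEX rat 7 from 558 to 491. The saline changes ran from −0.16 to 0.03, the DEX rats moved in opposite directions, and the left kidney of DEX rat 7 was the brightest array of all on this probe set. The ACTH rise over the left kidney was 1.55-fold (0.64 ± 0.15 SE, 2 rats, limma adjusted p = 0.0368), and the effect over saline was 0.68 ± 0.18 SE (limma adjusted p = 0.167), not past the threshold.

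The second Tagln probe set, M83107_g_at, separated the ACTH right kidneys from all others. They had 651 and 701, against 373, 444, 404 and 444 in the saline and 499.8 and 581 in the DEX right kidneys. Left kidneys of rats 1 to 8 had 481, 366, 407, 431, 401, 412, 605 and 461. The 2 ACTH values were the highest of the 16 arrays. Changes were 0.42 and 0.78 in the ACTH rats and −0.05 to 0.04 in the saline rats. In the ACTH rats the rise over the left kidney was 0.60 ± 0.14 SE (2 rats, limma adjusted p = 0.0366), with an effect over saline of 0.61 ± 0.17 SE (limma adjusted p = 0.197) that did not pass.

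**Figure D2:**
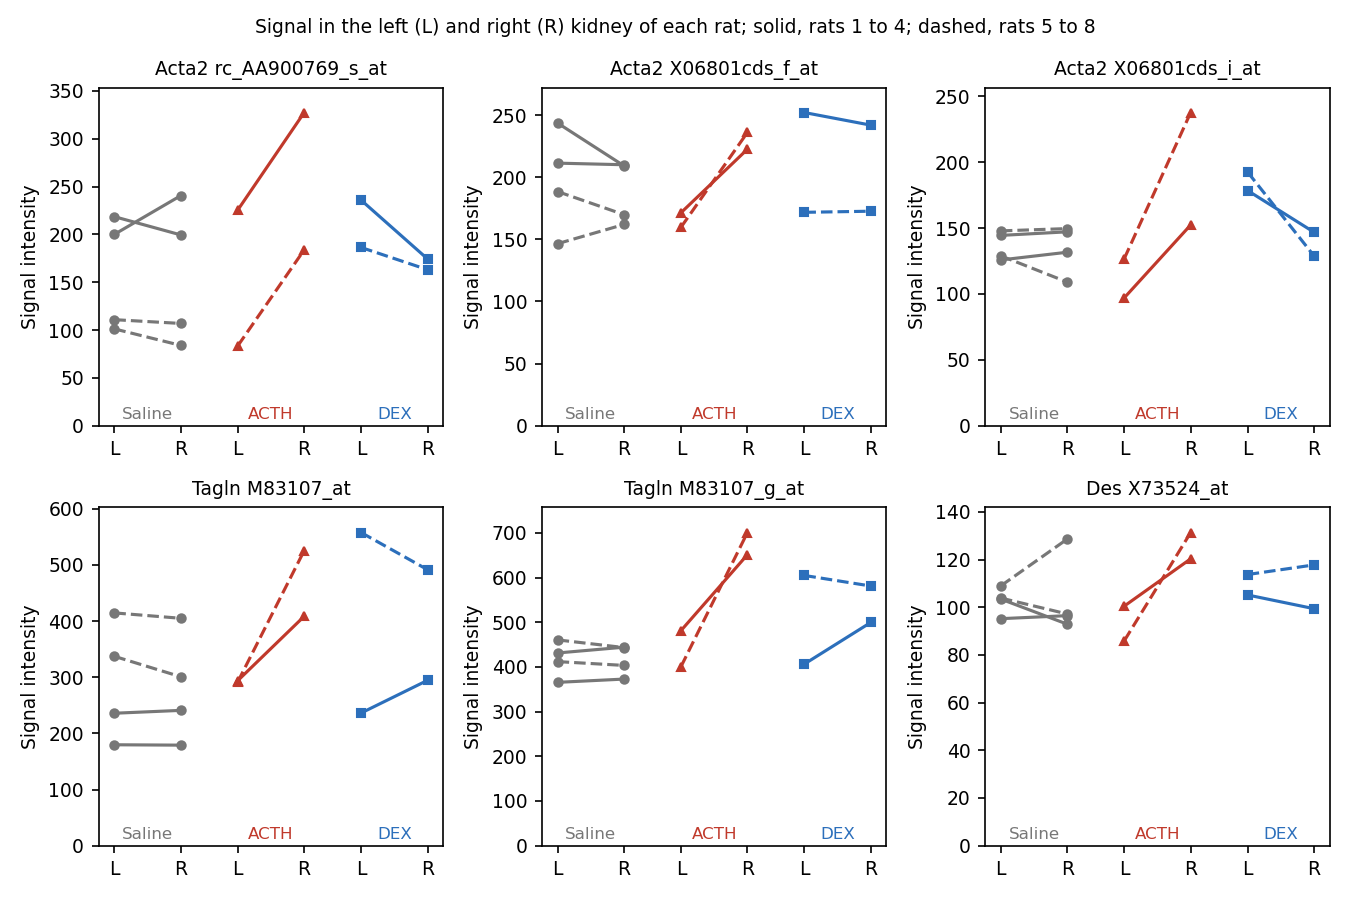
Signal intensity (y axis, from 0) in the left and right kidney of each rat for the 3 Acta2, 2 Tagln and 1 Des probe sets. Lines join the kidneys of 1 rat, solid for rats 1 to 4 and dashed for rats 5 to 8. Each ACTH line climbs in every panel, and the Acta2 panel of rc_AA900769_s_at shows saline kidneys between 199 and 241 in the solid lines and between 83.9 and 111 in the dashed lines.

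Rat 5 had the larger change on all 5 of these probe sets. Leaving out either ACTH rat leaves 1, which the fit assumes to vary like the saline and DEX rats, since those alone then give the spread. Without rat 5, 0 of the 13 probe sets passed right over left in the remaining ACTH rat. The changes there were those of rat 1 alone, 0.51 and 0.58 for the 2 called Acta2 probe sets and 0.45 and 0.42 for Tagln. Without rat 1, all 4 passed, and rc_AA900769_s_at also passed over saline at 1.05 ± 0.21 SE (limma adjusted p = 0.0498). Leaving out a saline or DEX rat kept both Acta2 calls and lost 1 or both Tagln calls, except for rat 6, without which all 4 were kept.

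Among the other thin filament proteins, the tropomyosins gave no common direction. Tropomyosins lie in the groove of the actin filament and gate its contact with myosin. Tpm1 is spliced into forms of muscle and of other cells, and the annotation does not say which form each probe set reads. Its brightest probe set, M34134_s_at, had right and left signals of 1391 and 1409 in ACTH rat 1 and 1274 and 1089 in ACTH rat 5, with saline right kidneys at 1028 to 1649. The ACTH and saline groups overlap. Over saline the 3 tested Tpm1 probe sets M34134_s_at, M15474cds_s_at and M60666_s_at had ACTH effects of 0.19 ± 0.17 SE, 0.13 ± 0.20 SE and −0.27 ± 0.22 SE, none past the threshold. The last was the 1 tested probe set of the 13 with a negative ACTH effect, and it was slightly positive (0.03) with right kidneys alone. The 2 dim Tpm1 probe sets, X02412_at and rc_AI144767_s_at, averaged 44.7 and 26.5 signal units.

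Tpm2, the beta-tropomyosin of muscle, averaged 53.2 on its single probe set and stood under the brightness filter. Its signal was 50.9 and 62.1 in the left and right kidneys of ACTH rat 1, and 55.5 and 79.6 in those of ACTH rat 5. Saline right kidneys had 49.1, 45.3, 50.4 and 54.8 and DEX right kidneys 49.2 and 51.9. The ACTH right kidneys were the higher ones, but the change in ACTH rat 1, 0.22, was below that of saline rat 8, 0.31. In a fit of all 8740 probe sets the ACTH effect was 0.22 ± 0.15 SE (limma adjusted p = 0.844).

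Cnn1, calponin, binds actin and slows the myosin motor. Its signal was low, at 70.6 on the left and 92.3 on the right in ACTH rat 1 and 75.1 and 99.8 in ACTH rat 5. Saline rats 2, 4, 6 and 8 had 64.1, 56.0, 75.0 and 72.7 on the left and 57.9, 47.9, 74.3 and 97.1 on the right. Changes of 0.32 and 0.35 under ACTH were close to each other, and saline rat 8 had 0.35, so the groups overlap. The ACTH effect was 0.32 ± 0.16 SE and the DEX effect −0.27 ± 0.16 SE, neither past the threshold.

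Myh11, the heavy chain of the smooth muscle motor, had low signal on all 3 probe sets. The 1 that passed the filter, X16262_s_at, had right kidney signals of 90.2 and 70.7 in ACTH rats 1 and 5, 66.7, 55.3, 55.7 and 66.1 in the saline rats and 63.1 and 77.3 in the DEX rats. Left kidneys had 89.9 and 59.2 in the ACTH rats, 76.2, 59.5, 71.8 and 78.9 in the saline rats and 89.2 and 97.6 in the DEX rats. The saline right kidneys were lower than the left ones in 4 of 4 rats (changes of −0.29 to −0.08), and the ACTH rats had 0.0046 and 0.21, so the changes of the groups do not overlap. It was the 1 probe set of the 13 with 1 sign in all 4 saline rats, where 12.3% of all probe sets had 1 sign in all 4. The ACTH effect was 0.29 ± 0.14 SE, not past the threshold. Of the dim probe sets, X16261_i_at had −0.29 ± 0.13 SE and S61948_s_at 0.06 ± 0.14 SE, so the 3 did not share a direction. X16261_i_at separated the groups the opposite way. Its changes were −0.16 and −0.12 in the ACTH rats and 0.13 to 0.19 in the saline rats, higher on the right in 4 of 4.

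Myl9, the regulatory light chain whose phosphorylation starts contraction, was brighter on the right in 1 of the 2 ACTH rats. On S77900_at the signal was 183 on the left and 277 on the right in ACTH rat 5, and 162 and 163 in ACTH rat 1. The overlapping probe set S77900_g_at gave 279 and 443 in rat 5 and 232 and 222 in rat 1. The right kidney of rat 5 was the highest of the 16 arrays on both, and rat 1 lay within the saline range of changes on both. The ACTH effects were 0.30 ± 0.18 SE and 0.33 ± 0.20 SE, neither past the threshold, and without rat 5 they were 0.02 and −0.02.

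Des, desmin, gave 100.5 on the left and 120.3 on the right in ACTH rat 1 and 85.9 and 131 in ACTH rat 5. Saline rats 2, 4, 6 and 8 had 95.2, 103, 104 and 109 on the left and 96.5, 92.9, 97.2 and 129 on the right. DEX rats 3 and 7 had 105 and 114 on the left and 99.4 and 118 on the right. In level the right kidney of saline rat 8 was above that of ACTH rat 1. As changes, the ACTH rats (0.23 and 0.53) lay just above saline rat 8 (0.21). The ACTH effect was 0.38 ± 0.15 SE (limma adjusted p = 0.449), and right over left in the ACTH rats it was 0.38 ± 0.13 SE (limma adjusted p = 0.12). Neither passed.

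**Figure D3:**
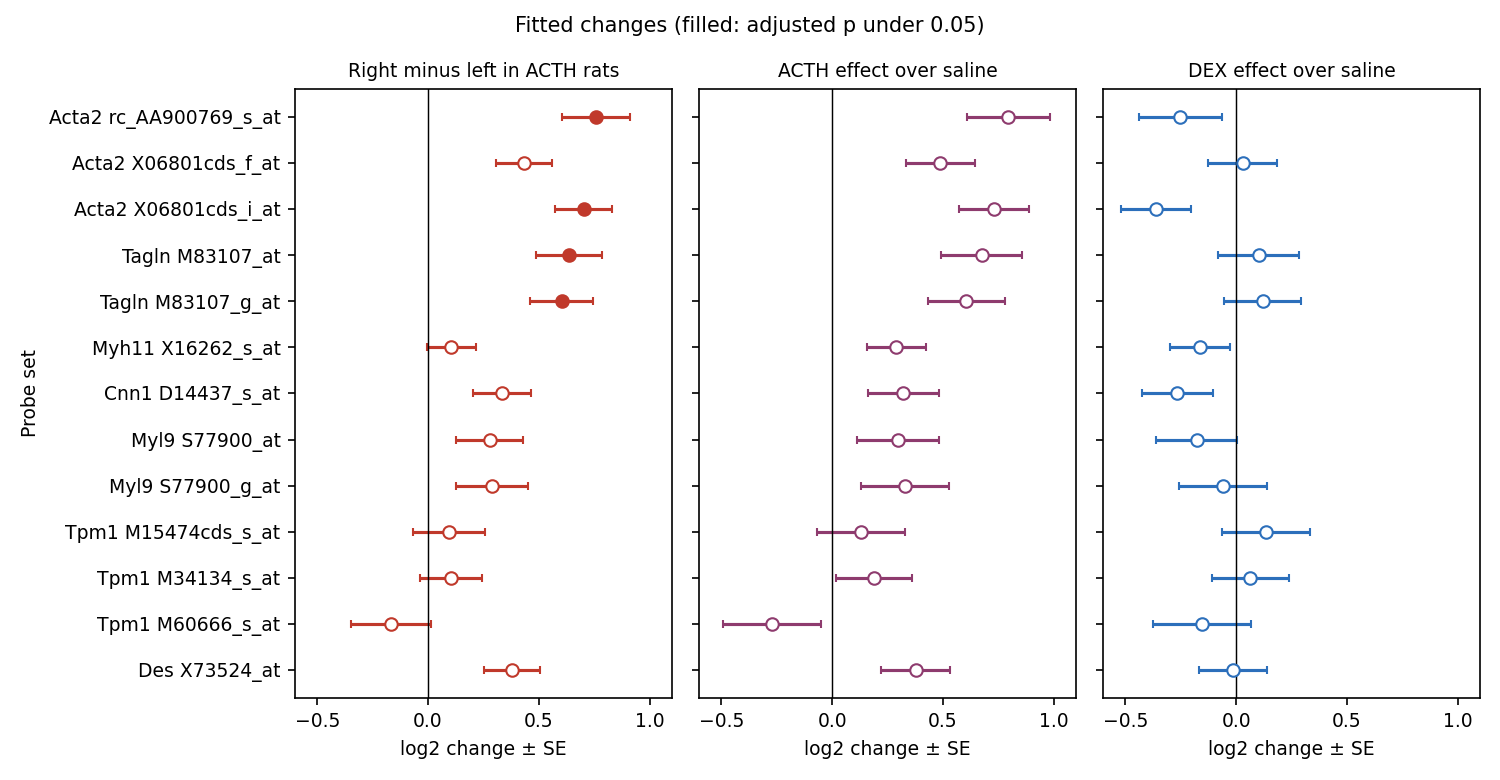
Fitted log2 changes with their SE (x axis) for the 13 tested probe sets (y axis) right over left in the ACTH rats, in the ACTH effect over saline and in the DEX effect over saline. Filled points, the 2 Acta2 and 2 Tagln probe sets in the first panel, have a limma adjusted p under 0.05, and no point of the other panels is filled.

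Across the 13 tested probe sets, the median ACTH effect over saline was 0.33, against −0.00033 over all 5244, and 12 of 13 were positive, where 49.9% of all were. In 7 of the 13 (3 Acta2, 2 Tagln, 1 Myh11 and 1 Des) both ACTH changes lay above all 4 saline changes, where 7.82% of all probe sets did. In 0 of the 13 did both lie below, where 7.84% of all did, although both did on the dim Myh11 probe set X16261_i_at. Right over left in the ACTH rats the medians were 0.33 for the 13 and 0.01 for all. The members were chosen with earlier results of these data known, so these shares describe them and are not independent support. All rest on the same 2 ACTH rats, and the 3 Acta2 and 2 Tagln probe sets come from 2 genes.

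In the DEX rats no member passed. The median DEX effect of the 13 was −0.06, against −0.0030 over all probe sets, and 5 of 13 were positive, where 49.5% of all were. The right over left change was negative in 10 of the 13 in the DEX rats, where 46% of all were, and in 10 of the 13 in the saline rats too, where 44.2% of all were. The lowest DEX effect was that of Acta2 X06801cds_i_at, at −0.36 ± 0.16 SE (limma adjusted p = 0.999), with changes of −0.26 and −0.53 that both lay below the saline range of −0.21 to 0.06. Such a separation below occurred in 2 of the 13, where 6.33% of all probe sets had it. The other was Cnn1, with −0.31 and −0.19 against a saline range of −0.17 to 0.35. Both DEX changes lay above all saline changes in 0 of the 13, where 6.08% of all did. The highest DEX effects were Tpm1 M15474cds_s_at at 0.14 ± 0.20 SE and Tagln M83107_g_at at 0.12 ± 0.17 SE, where DEX rat 3 changed by 0.29 and DEX rat 7 by −0.06. In 6 of the 13 both DEX rats were lower on the right (2 Acta2, 1 Myh11, 1 Cnn1 and 2 Myl9), where 24% of all probe sets were, and in 0 both were higher, where 31.3% were.

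Against each other, the hormones differed at an unadjusted p under 0.05 in 9 of the 13, all with the higher change under ACTH, where 12.2% of all probe sets were at that p and 3.97% were higher. The 9 were 3 Acta2, 2 Tagln, 1 Myh11, 1 Cnn1, 1 Myl9 and 1 Des. Only the Acta2 probe set given above passed after adjustment. In the saline rats, where no hormone was given, 0 of the 13 passed right over left, as did 0% of all. At an unadjusted p under 0.05 this gave 1, Myh11 X16262_s_at, as lower, where 3.74% of all were at that p and 1.24% were lower. The median change was −0.04, against 0.01 over all.

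For some members the level in the left kidneys was split by the cluster of arrays. Acta2 on rc_AA900769_s_at had 200.02 to 236 in the left kidneys of rats 1 to 4 and 83.4 to 186 in those of rats 5 to 8. Tpm1 on M34134_s_at had 1409 to 1888 and 1009 to 1131, and Myl9 on S77900_g_at had 194 to 232 and 279 to 329. The first 2 were higher in rats 1 to 4 and Myl9 in rats 5 to 8, with no overlap. Other probe sets of these genes differed. Acta2 X06801cds_f_at had 171 to 252 in rats 1 to 4 and 146 to 188 in rats 5 to 8, which overlap. X06801cds_i_at (97.1 to 179 and 127 to 193) and Myl9 S77900_at (148 to 183 and 179.9 to 216) overlapped too. Tpm1 M15474cds_s_at was higher in rats 5 to 8 (147 to 186 and 189 to 236). So was the Cnn1 probe set (56.0 to 70.6 and 72.7 to 92.8). These clusters were read from the arrays, so no test is given. The share of all probe sets split in this way was not counted, so the splits are not read as a trait of the members. Within rats 1 to 4 the right over left change of the ACTH rat minus that of the saline rats was 0.45 for Acta2 rc_AA900769_s_at and 0.39 for Tagln M83107_g_at. Within rats 5 to 8 it was 1.15 and 0.82, so both clusters gave the same sign.

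The changes of different members went together across the 8 rats, apart from Tpm1, whose own probe sets did not go together. Over the 40 pairs of tested probe sets from different genes other than Tpm1, Pearson's r of the right minus left changes was positive in all and ran from 0.46 to 0.92 (median 0.73). For the 30 pairs of Tpm1 with another gene it ran from −0.44 to 0.77 (median 0.09), and over all pairs of tested probe sets the median was 0.00092. The brightest Tpm1 probe set, M34134_s_at, had a positive r with every tested probe set of another gene (0.19 to 0.77). With Tpm1 M15474cds_s_at and M60666_s_at it had −0.59 and −0.51, and those had −0.20 with each other. All points share the same 8 pairs of arrays, and 2 of the 8 points are the ACTH rats. Of 4395 other probe sets with 1 symbol, the 5 whose changes over the 8 rats followed the mean of the members most closely were Igfbp6, an IGF binding protein (r = 0.975), the galectin Lgals3 (r = 0.970), Renbp, a renin-binding protein (r = 0.946), Hmg20b (r = 0.946) and the HDL receptor Scarb1 (r = 0.943). The Igfbp6 change was 0.33 in ACTH rat 1, 0.79 in ACTH rat 5 and between −0.13 and −0.0038 with saline.

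The wider contractile pathway had a median near that of all probe sets. A list of 72 further genes of calcium handling, myosin phosphorylation, actin anchoring and serum response factor control had 31 genes and 45 probe sets above the brightness filter. In the ACTH effect over saline 0 of the 45 passed, 19 were positive, where 49.9% of all were, and the median was −0.07. At an unadjusted p under 0.05 that effect gave 3 of the 45 as higher and 6 as lower. Of all probe sets 4.27% were higher and 5.17% lower at that p. In the DEX effect 0 of 45 passed, 21 were positive, where 49.5% of all were, and the median was −0.01. The smallest p in the ACTH effect belonged to Agtr1a, the angiotensin II receptor that constricts vessels, at −0.65 ± 0.16 SE (limma adjusted p = 0.106). Its changes were −0.76 and −0.73 in the ACTH rats, with a saline range of −0.25 to 0.11. Right over left in the ACTH rats, Agtr1a fell on 3 of its 4 tested probe sets, the 3 of 45 that passed. Of all probe sets 3.57% passed there and 1.54% passed as lower. Next came the filament protein Vim at 1.00 ± 0.30 SE, carried by rat 1 with 1.66 against 0.22 in rat 5, and the muscle laminin receptor subunit Itga7 at 0.52 ± 0.17 SE, with 0.65 and 0.31. For DEX the 3 smallest p values belonged to the myosin phosphatase subunit Ppp1cb at 0.98 ± 0.24 SE, the growth factor Tgfb1 at −0.27 ± 0.15 SE and the actin cross-linker Actn4 at −0.29 ± 0.17 SE, none past the threshold. Between the hormones, Ppp1cb was the 1 pathway probe set that passed, with an ACTH minus DEX difference of −1.51 ± 0.28 SE (limma adjusted p = 0.0351). Its second probe set had −0.88 ± 0.29 SE and did not pass.

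Markers of other cells of the vessel wall and of other muscle were measured beside the members. Of 13 tested probe sets for mural, mesangial and pericyte cells (9 genes), 5 were positive in the ACTH effect, with a median of −0.14, and 0 passed. Agtr1a, with 4 of the 13, is on this list and on the pathway list. Striated muscle, which also holds desmin and tropomyosins, had 12 tested probe sets with a median of 0.02, 7 positive and 0 past the threshold among its markers. Endothelial markers had a median of −0.03 in 9 probe sets, and fibroblast and matrix markers −0.24 in 31, of which 1, the collagen Col3a1, passed as lower (−1.07 ± 0.20 SE, limma adjusted p = 0.0448). The proximal tubule gene Kap was also lower in the ACTH effect, at −0.78 ± 0.12 SE (limma adjusted p = 0.018). Right over left in the ACTH rats the medians were −0.12, 0.06, −0.02 and −0.16 in the same order, against 0.33 for the contractile probe sets. Over all marker lists, the calls right over left in the ACTH rats beside Agtr1a were Col3a1 (−0.92), the leukocyte genes Ccl5 (−0.84) and Aif1 (−0.85), the proximal tubule genes Slc34a1 (−0.94) and Kap (−0.84), and the distal tubule genes Egf (−0.78), Calb1 (0.77) and Klk1 on 2 probe sets (0.59 and 0.50). The Slc34a1 call was on AB013453_at, and the far brighter Slc34a1 probe set AB013455_g_at did not pass. Kap also passed in ACTH minus DEX (−0.99).

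Marker lists of 3 other kinds stood high, among right kidneys, in ACTH rat 1 or rat 5. Of 16 fat probe sets 16 had a positive ACTH effect (median 0.72) and 0 passed, and of 12 collecting duct probe sets 12 did (median 0.22) and 0 passed. In ACTH minus DEX, 16 of 16 fat probe sets were positive (median 0.95) and 4 passed as higher, 2 of the brown fat uncoupling protein Ucp1 (3.27 and 2.87), 1 of the fatty acid carrier Fabp4 (3.05) and 1 of the adipocyte protease Cfd (2.48). The mean log2 level of 10 fat marker genes in the right kidney was 9.57 in ACTH rat 1, 7.68 in ACTH rat 5 and 7.04 to 7.39 in the saline rats. It changed by 1.44 in ACTH rat 1 and 0.31 in rat 5, against −0.79 to 0.13 in the saline rats and −0.88 and −0.85 in the DEX rats. The mean change of the 7 contractile genes was 0.20 in ACTH rat 1 and 0.47 in ACTH rat 5. With the fat marker mean as a covariate, the right over left changes of the ACTH rats were 0.94 for Acta2 rc_AA900769_s_at, which passed, 0.71 for X06801cds_i_at, and 0.73 and 0.75 for Tagln. Of these the last 3 did not pass, with limma adjusted p between 0.0622 and 0.0921. Without the covariate the same changes were 0.76, 0.70, 0.64 and 0.60. The right kidney level of the collecting duct mean was 9.06 in ACTH rat 5, 8.38 in the other ACTH rat, and 8.46 to 8.54 with saline. For the erythrocyte mean the same levels were 9.54, 9.16 and 8.85 to 9.14. Some left kidneys were high too. The erythrocyte mean was 9.55 in the left kidney of saline rat 6 and 9.41 in that of ACTH rat 1. The fat mean was 8.18 in the left kidney of saline rat 6, 8.13 in that of ACTH rat 1, and 7.92 and 8.15 in those of DEX rats 3 and 7. In rat 5 the mean of 8 collecting duct genes changed by 0.65 and that of 3 erythrocyte genes by 0.71, against −0.02 and −0.26 in rat 1. Saline rats had 0.00016 to 0.11 and −0.41 to 0.31 on the same lists. The fat mean went up in both ACTH rats and down in both DEX rats, so this covariate cannot tell fat RNA apart from the hormones. The part of fat, collecting duct and erythrocyte RNA in the contractile changes was not tested.

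**Figure D4:**
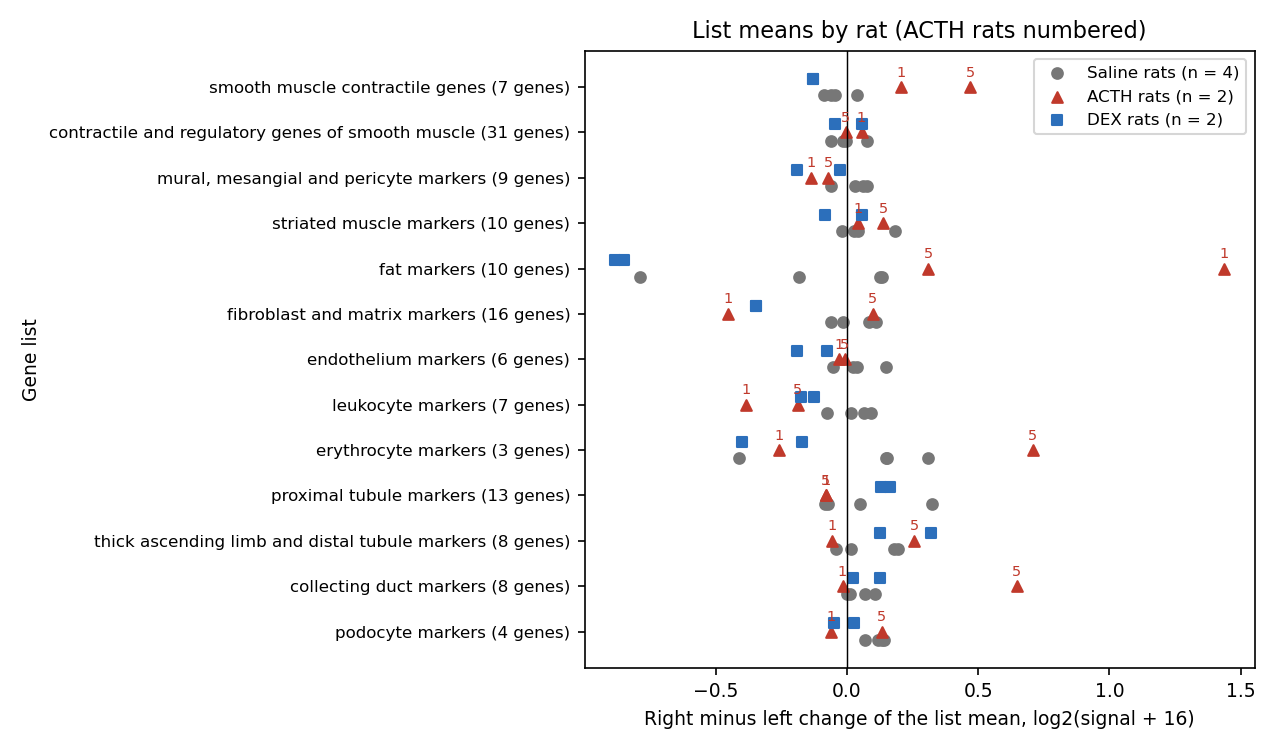
Right minus left change of the mean of each gene list (x axis, log2(signal + 16) scale) in each rat, with the number of genes tested per list in brackets and ACTH rats numbered. The contractile genes and the fat markers have both ACTH rats right of all saline rats. Leukocyte markers and mural, mesangial and pericyte markers have both left of all saline rats, the latter narrowly. Fat markers are highest in rat 1, while collecting duct and erythrocyte markers are highest in rat 5.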

How the data were processed

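RNA of both kidneys of 8 rats was measured on 1-colour oligonucleotide arrays, with Tri-Reagent and RNeasy extraction and biotin labelling per the labels' protocols. The deposited values are signal intensity on a linear scale, 1 per probe set (5.18 to 12664). For software and normalization, what the authors used is not given in the sources used here, and no array was rescaled. The platform annotation names no genome build. The 59 control probe sets were removed, and the 40% of the other 8740 with the lowest mean log2 value were left out. Values were converted to log2(signal + 16). The model, fitted by limma 3.58.1 in R 4.3.3, held rat, right kidney, and ACTH and DEX in the right kidney, with an intensity trend (5 residual and 7.34 prior degrees of freedom). There were 6 comparisons, and the threshold was an adjusted p of 0.05. The fit was tested on simulated data. No table column was left unused.

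The rat is a block because both kidneys come from 1 animal. Left and right deviations correlated in every rat (0.46 to 0.73 over 5244 probe sets). All probe sets whose single symbol is a member are described. Of the pathway list the 3 genes with the smallest p per hormone were named, with the genes called in any list. Lists of markers for proximal tubule, thick ascending limb and distal tubule, podocytes and leukocytes had median ACTH effects of −0.23, −0.0014, −0.06 and −0.29. The members and lists were chosen with earlier results of these data known. P-values weigh a change against the spread of the right minus left changes between rats of the same treatment. That spread is moderated with information from the other tested probe sets. Alternatives were other pseudocounts and filters, quantile normalization, no rat term, right kidneys only, a right kidney term per cluster, each cluster alone, the fat marker mean as covariate, no intensity trend, and leaving out each rat.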

Additional observations from a re-analysis of the deposited data

Results flagged for a closer look

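In 39 groups of 4 to 8 values among the 13 tested probe sets (left kidneys, saline right kidneys and saline changes), 3 had 1 sample far from the others by Dixon's criterion, and chance gives about 1 in 20. The saline change of Acta2 X06801cds_i_at was −0.21 in rat 6, against 0.02 to 0.06 in the other saline rats. That of Tpm1 M34134_s_at was 0.16 in rat 6, against −0.19 to −0.14. The Des signal in the right kidney of saline rat 8 was 129, against 92.9 to 97.2. The change of Acta2 X06801cds_i_at differed between the hormones by test, by 1.09. It was higher in 2 of 2 ACTH rats than in both DEX rats. Of all tested probe sets, 18.5% were separated in that direction and 38.3% in either.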

How the results depend on the processing

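Counts below are of probe sets past the adjusted threshold by limma. Over all 5244 probe sets, the ACTH effect over saline gave 26, and 12 after quantile normalization, 11 with the fat marker mean as a covariate and 0 in right kidneys alone. ACTH minus DEX gave 30, and 76 with the fat covariate, 74 with a right kidney term per cluster and 0 in right kidneys alone. Right over left in the ACTH rats gave 187 (106 higher, 81 lower), 290 with the term per cluster, and 208 (49 higher, 159 lower) with the fat covariate. In ACTH minus DEX that covariate turned 15 higher and 15 lower into 7 and 69. The DEX effect gave 0, and 1 with the fat covariate. Right over left in saline gave 0, 3 with the fat covariate, and 1 each with a pseudocount of 1, no filter, a 60% filter, quantile normalization or no intensity trend.

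Of the 13 contractile probe sets, the 4 called right over left in the ACTH rats were called under every alternative that kept all rats, other than the fat covariate (1) and the fit without the replicate block (0). The 1 called in ACTH minus DEX became 2 with a 60% filter or a term per cluster, and 0 with the fat covariate or right kidneys alone. Without the replicate block, that is without a term for each rat, the ACTH effect gave 0, ACTH minus DEX gave 0 and right over left in the ACTH rats gave 4 of all probe sets, and 0 of the 13 in each.

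Leaving out 1 rat at a time, where a hormone left with 1 rat is assumed to vary like the other groups, the counts over all probe sets ran from 9 to 114 for the ACTH effect, 0 to 3 for DEX, 2 to 100 for ACTH minus DEX, 119 to 272 right over left in ACTH, 0 to 4 in DEX and 0 to 1 in saline. Over the 13 they ran from 0 to 1 for the ACTH effect, 0 to 2 for ACTH minus DEX and 0 to 4 right over left in ACTH, and were 0 for the others. The highest ACTH effect count (114) came without rat 5 and the lowest (9) without rat 4. In ACTH minus DEX the highest (100) came without rat 1, where 2 of the 13 passed, and the lowest (2) without rat 7.

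The sign of the ACTH effect held under every alternative for 10 of the 13. It turned for Myl9 S77900_g_at without rat 5, for Tpm1 M15474cds_s_at with the fat covariate or without rat 1, and for Tpm1 M60666_s_at in right kidneys alone. For the DEX effect it held for 2 of the 13. Each cluster alone has 1 rat per hormone, so it gives values with no test. With 2 rats per hormone, the number of arrays limits the precision. Probe sets left out by the brightness filter entered only the fit with no filter, and the lowest mean signal of a probe set inside the filter was 60.5.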
